A study of Caenorhabditis elegans with 8 samples.

Results

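FMRFamide-like peptides (FLPs) are short amidated neuropeptides of Caenorhabditis elegans, and the genes described here are the FLP precursor genes (flp) and 2 groups of genes named for peptide receptors (frpr and npr). All genes named flp-, frpr- or npr- with a number were taken, without flp-2, flp-11, flp-13, flp-18, flp-21, flp-24, frpr-18 and npr-1. A gene was kept where the scanner software called at least 1 of its probes well above background on every array of a genotype. The name table held 88 such genes, 84 of them had a probe on the array, and 71 were kept. These 71 genes were 22 flp precursors, 15 frpr receptors and 34 npr receptors, out of 18315 genes and unnamed targets tested.

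Whole hermaphrodites of the fourth larval stage (L4), which the labels describe as sleeping, were compared between the mutant aptf-1(gk794) and the wild-type strain N2. Plates were kept at 21.5 °C, and 200 larvae were pooled into each sample. Each genotype had 4 samples, and every sample had its own Agilent array, read in 1 color. aptf-1 encodes an AP2 transcription factor that the study examined for its role in sleep, and gk794 is a deletion allele. The mutation is present in the whole animal. According to the study the mutants do not become immobile during the sleep phase, so genotype and behavior cannot be told apart. In whole larvae, fewer neurons and less RNA per neuron cannot be told apart either.

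FLPs are made from precursor proteins that are cut, trimmed and amidated inside the secretory pathway of neurons, and they are released from dense core vesicles. Most act through G protein-coupled receptors, and several frpr and npr genes encode such receptors. One precursor can yield several related peptides, 1 receptor can answer to peptides of several precursors, and the ligands of many npr receptors are not known. FLPs are best known in C. elegans for the control of locomotion, egg laying, feeding, arousal and sleep. FLP-11, made by the sleep-active neuron RIS, is the precursor at the center of the study, and it is not among the 71 genes.

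All levels below are log2 signals minus the 75th percentile of the same array, so 0 is the level of that percentile and 1 unit is a 2-fold change. Such levels compare arrays for 1 gene and do not rank genes against each other. Differences are aptf-1(gk794) minus N2. On each array 72.2% to 79.7% of spots passed as well above background, and 0 were saturated. The single aptf-1 probe was at -5.96, -7.22, -4.29 and -7.13 on the arrays labelled aptf-1(gk794) replicates 1 to 4, against -5.34, -5.24, -5.18 and -5.58 on the N2 arrays. It differed by -0.82, with p = 0.314 in an exact two-sided permutation test over 70 assignments. Its signal was highest on an array with the mutant's label, that of replicate 3, so the directions below rest on the labels. The 8 arrays lay on 2 slides, each with 2 arrays of each genotype. The mutant always took positions 3 and 4 of a slide and N2 took positions 1 and 2, so position and genotype cannot be told apart. flp-11, which the rule left out, was at -0.68, -0.71, -0.69 and -0.64 on the mutant arrays, against 0.60, 0.47, 0.45 and 0.48 on the N2 arrays, so by this gene mutant replicate 3 lay with the other mutant arrays. flp-11 differed by -1.18 (SE 0.07, adjusted p = 0.00278 in limma), which put the mutant at 44.1% of N2.

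The first question was whether any of the 71 genes differed between the genotypes in whole larvae. A change confined to RIS could go unseen there for a gene that is also made in other cells. None of the 71 passed the threshold, which was an adjusted p under 0.05 in limma with a change of at least 1.5-fold. Over all genes tested, 11 of 18315 passed (0.0601%). The lowest adjusted p of the 71 was 0.138, for flp-27. At an unadjusted p under 0.05 there were 11 of 71 genes (15.5%), with 7 higher and 4 lower in the mutant by label, beside 12.2% of all genes (4.48% higher and 7.76% lower). Of these, npr-17 (higher) and npr-33 (lower) were well above background on all 4 arrays only in the genotype where they were high. With the filter on all 8 arrays there were 9 of 65 genes, beside 12.1% of all genes. A difference of at least 1.5-fold was seen in 1 of the 71 genes, npr-41, beside 8.44% of all genes (4.72% higher and 3.72% lower). In 4 of the 71 genes (5.63%) the genotypes did not overlap, meaning that every array of one lay above every array of the other. That share was 8.05% over all genes, 3.09% with the mutant higher and 4.96% with the mutant lower. The median difference was 0.02 over the 71 genes and -0.03 over all genes, and the median SE of the 71 was 0.14.

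The flp precursors had a median difference of 0.10, with 13 of 22 higher in the mutant by label. The frpr receptors had a median of -0.11 with 6 of 15 higher, and the npr receptors a median of 0.02 with 18 of 34 higher. Among all genes 45.3% were higher. All 6 flp precursors at an unadjusted p under 0.05 were higher in the mutant. They are 27.3% of the precursors, beside 4.48% of all genes. The npr receptors had 1 gene higher (2.94%) and 4 lower (11.8%) at that level, and the frpr receptors had 0. Over all genes 7.76% were lower at that level. No test was made of a group as a whole, and the differences between the groups were not tested. Without 1 array the median was 0.050 to 0.15 for the flp precursors and -0.17 to -0.023 for the frpr receptors, and with normexp background correction the frpr median was -0.017. The normexp setting adds an offset of 50 to every intensity, which by itself pulls the differences of dim genes toward 0.

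**Figure D1:**
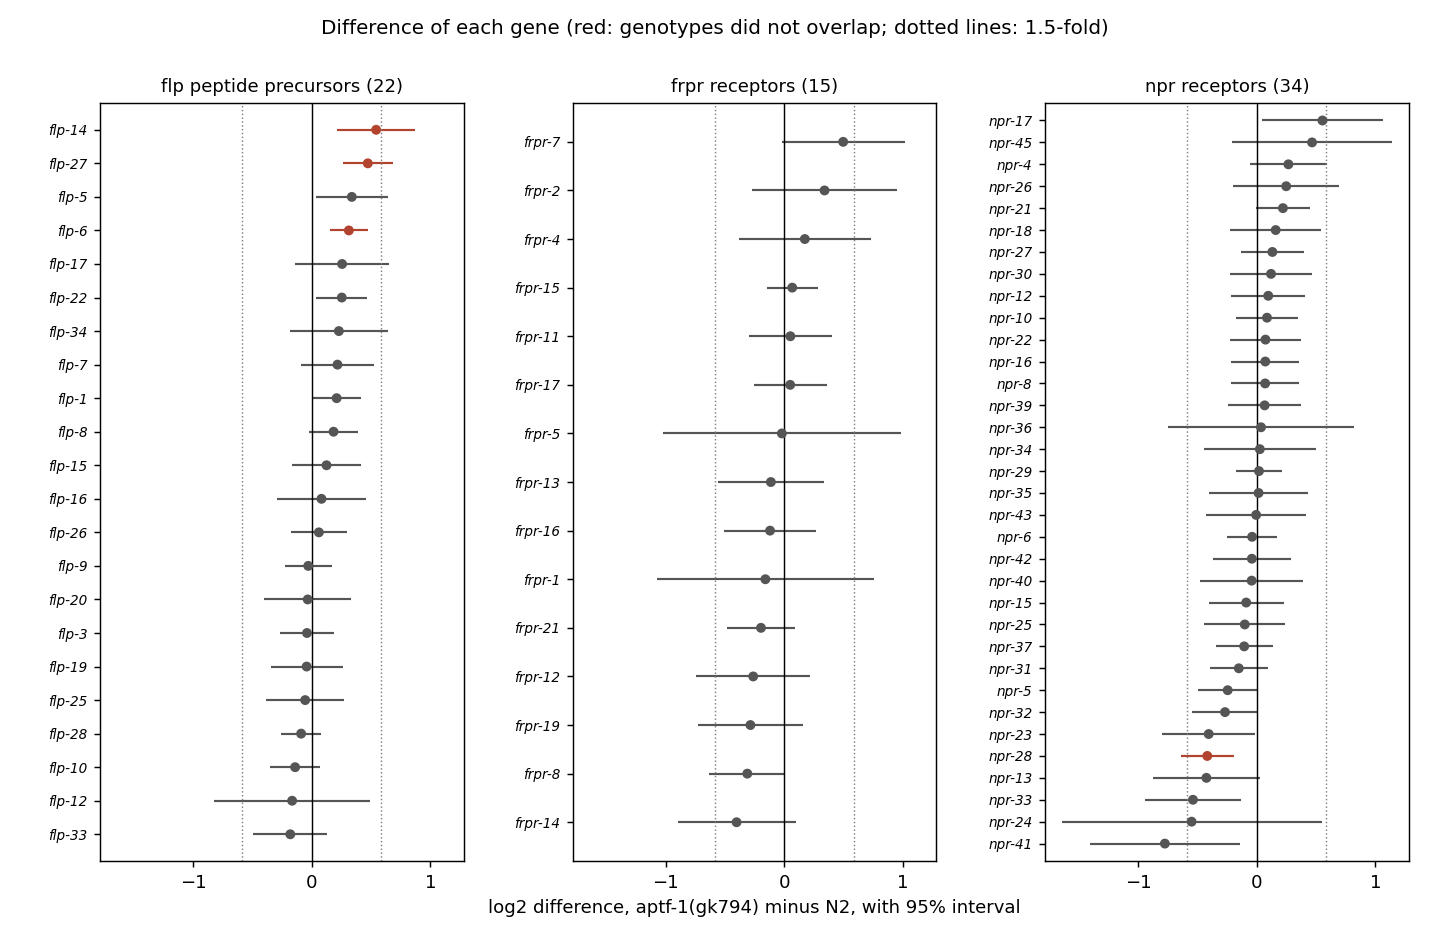
Difference between genotypes for each of the 71 genes, on the log2 scale (aptf-1(gk794) minus N2, n = 4 arrays each, 3 for npr-15 in N2), with the 95% interval of the limma fit as a line. The panels hold the 22 flp precursors, 15 frpr receptors and 34 npr receptors in order of their difference, red marks the 4 genes whose genotypes did not overlap, and npr-41 is the single gene beyond the dotted lines at 1.5-fold.

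Of the peptide precursors, flp-14 had the largest difference. The levels of flp-14 were 2.00, 1.41, 1.90 and 1.58 on the arrays labelled aptf-1(gk794), against 1.05, 1.21, 1.17 and 1.30 on the N2 arrays. Every mutant array was above every N2 array, but the mutant arrays spread wider, with an SD of 0.28 beside 0.10 in N2 (n = 4 each). The difference was 0.54 (SE 0.14, adjusted p = 0.235 in limma), a fold of 1.46, and it was 0.60 on slide 1 and 0.49 on slide 2.

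flp-27 came next and was the gene of the 71 with the lowest adjusted p. Levels were -1.40, -1.19, -1.30 and -1.39 on the mutant arrays, against -1.73, -1.95, -1.82 and -1.67 on the N2 arrays. The genotypes were separate and the spreads small, with an SD of 0.10 in the mutant and 0.12 in N2. Its difference was 0.47 (SE 0.09, adjusted p = 0.138 in limma), and it was 0.47 on each of the 2 slides. flp-27 lies on chromosome II like aptf-1, 183 protein-coding genes away in the current annotation. Nearer to aptf-1 were frpr-16 (92 genes away) and npr-31 (169), which differed by -0.12 and -0.15 with overlapping genotypes.

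flp-6 was the third precursor with separate genotypes. It is made in sensory neurons, among them the thermosensory neuron AFD. flp-6 stood at 0.56, 0.54, 0.64 and 0.58 on the mutant arrays, against 0.19, 0.27, 0.29 and 0.32 on the N2 arrays. Every mutant array was above every N2 array, with SDs of 0.04 in the mutant and 0.06 in N2. The difference of flp-6 was 0.31 (SE 0.07, adjusted p = 0.188 in limma), or 1.24-fold, and it was 0.31 on slide 1 and 0.32 on slide 2.

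The precursors flp-5, flp-22 and flp-1 had smaller differences in the same direction, and their genotypes overlapped. flp-5 was at 0.58, 0.02, 0.42 and 0.16 on the mutant arrays, against -0.03, -0.08, -0.14 and 0.07 on the N2 arrays. In flp-5, 1 mutant array, replicate 2, lay within the N2 range, and the difference was 0.34 (SE 0.13, adjusted p = 0.376 in limma). flp-22 differed by 0.25 (SE 0.09, adjusted p = 0.358).

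**Figure D2:**
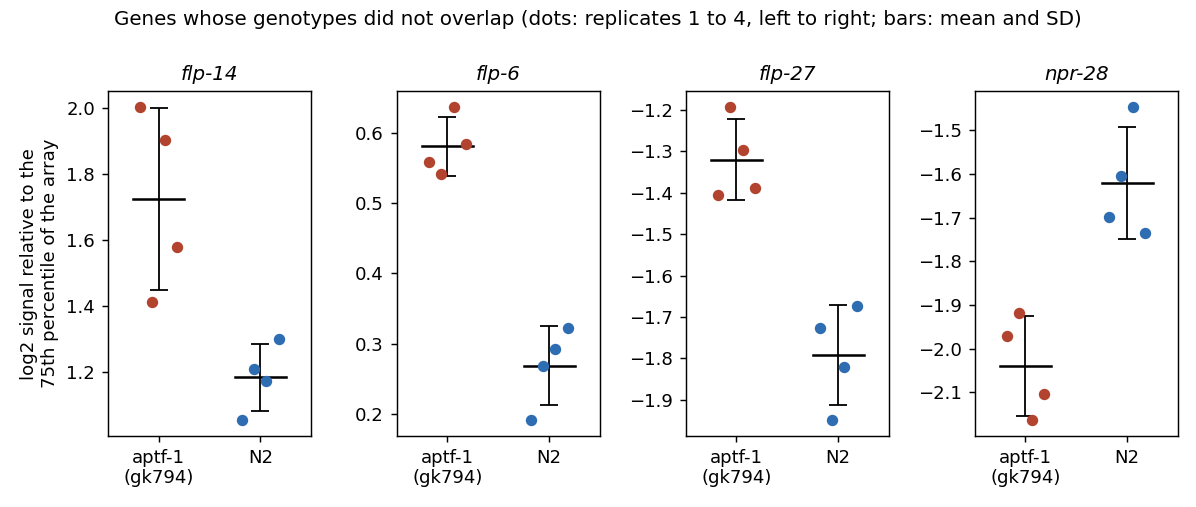
Levels of flp-14, flp-6, flp-27 and npr-28 on each array (log2 signal relative to the array's 75th percentile, each panel with its own scale), with aptf-1(gk794) on the left and N2 on the right. Dots are arrays and bars are the mean and SD (n = 4), and in each panel the 2 groups of dots do not overlap: the mutant is higher in the 3 flp genes and lower in npr-28.

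Those that were lower in the mutant had small values. flp-33 had -0.49, -0.08, -0.37 and -0.12 on the mutant arrays, against 0.10, 0.06, -0.31 and -0.18 on the N2 arrays. The groups of flp-33 overlapped and the difference was -0.18 (SE 0.13), or -0.11 without mutant replicate 1. The remaining precursors that were lower, besides flp-10, flp-12 and flp-20 described below, were flp-28, flp-25, flp-19, flp-3 and flp-9, with differences between -0.09 and -0.03.

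flp-12 was measured by 11 probes, the most of the 71 genes, and its gene value of -0.17 (SE 0.29) joined probes that went opposite ways. In C. elegans males, flp-12 acts with flp-8, flp-10 and flp-20 to restrain repeated turning during mating. The scanner files name 6 of its probes for the transcript C05E11.8a and 5 for C05E11.8b. This split was looked at after the probe values had been seen.

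The 6 probes of C05E11.8a averaged 1.43, 0.81, 1.25 and 1.04 on the mutant arrays, against 0.74, 0.78, 0.56 and 0.81 on the N2 arrays. All 4 mutant arrays were above the N2 arrays, although replicate 2 was so by a narrow margin, and each of the 6 probes differed by between 0.36 and 0.45. The difference of this transcript was 0.41 (SE 0.14, adjusted p = 0.334 in limma over 3288 transcripts).

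The 5 probes of C05E11.8b averaged -1.13, -2.51, -1.34 and -3.49 on the mutant arrays, against -0.99, -0.95, -1.65 and -1.44 on the N2 arrays. The mutant arrays of replicates 2 and 4, which both lay at position 4 of their slides, were far below all others, and replicates 1 and 3 lay within the N2 range. Each of the 5 probes had a negative difference, between -1.03 and -0.77, and their mean differed by -0.86 (SE 0.48, adjusted p = 0.511 in limma).

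The 2 transcripts of flp-12 were therefore also compared within each array. C05E11.8a was above C05E11.8b by 2.56, 3.33, 2.58 and 4.53 on the mutant arrays, against 1.73, 1.73, 2.21 and 2.25 on the N2 arrays. The genotypes did not overlap, which was so for 3.19% of the 1097 transcript pairs in all genes. This within-array gap was wider in the mutant by 1.27 (SE 0.42, adjusted p = 0.740 in limma over those pairs). Only 1 other of the 1097 pairs had a larger absolute difference, and 0 pairs passed the threshold.

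**Figure D3:**
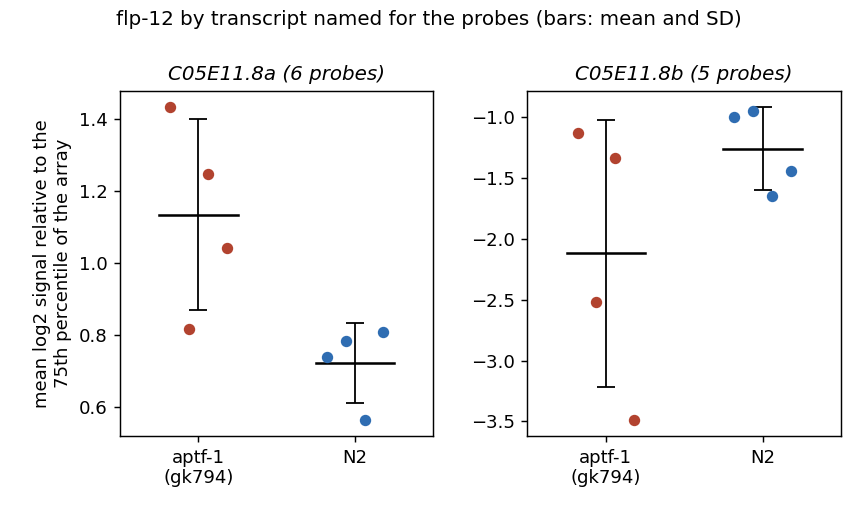
Mean level of the flp-12 probes named for C05E11.8a (6 probes, left) and C05E11.8b (5 probes, right) on each array, as log2 signal relative to the array's 75th percentile, with a separate scale per panel. Dots are arrays with aptf-1(gk794) left of N2, and bars are the mean and SD (n = 4): C05E11.8a is higher on all 4 mutant arrays, and C05E11.8b is lowest on 2 of them, at -2.51 and -3.49.

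Of the other genes with several probes, flp-1, flp-5, flp-8, flp-10, npr-4, npr-5 and npr-31 had all tested probes on the same side of 0, while flp-9, flp-25, frpr-15 and npr-22 did not. In flp-8 the probes of F31F6.4a differed by 0.14 and those of F31F6.4b by 0.25, and in npr-5 the probes of Y58G8A.4a and Y58G8A.4b differed by -0.20 and -0.27. No single probe of the 71 genes passed the threshold. The 4 genes with separate genotypes, flp-14, flp-27, flp-6 and npr-28, were each measured by 1 probe, as was npr-41. No other probe could be compared for them.

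The precursors varied together among the arrays labelled aptf-1(gk794). In 15 of 22 flp genes (68.2%), both arrays at position 3 (replicates 1 and 3) were above both arrays at position 4 (replicates 2 and 4). The reverse held in 2 of 22. Over all genes these shares were 29.5% and 20.4%. The position 3 arrays were also the brighter mutant arrays. Their 75th percentiles were 834 and 842, against 432 and 545 at position 4, so brightness gives the same split. In N2, both arrays at position 1 were below both at position 2 in 7 of 22 flp genes (31.8%). They were above in 2 of 22. The share below was 24.3% over all genes. Measured from the N2 mean of each gene, the median flp precursor was at 0.29 and 0.24 on replicates 1 and 3, against -0.02 and 0.02 on replicates 2 and 4. The difference between genotypes in the precursors was therefore larger on the 2 arrays at position 3. flp-6 and flp-27 did not show this split by position, and all 4 of their mutant arrays were above every N2 array. flp-9, flp-10 and flp-28, whose genotypes overlapped, did not show the split either. flp-14 did show it, and its 4 mutant arrays were also above every N2 array.

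Among the receptors, 7 of 15 frpr genes and 10 of 34 npr genes were above on both arrays at position 3. The median frpr receptor was at 0.15 and -0.11 on replicates 1 and 3, against -0.33 and -0.21 on replicates 2 and 4, and the npr medians lay between -0.09 and 0.02 on all 4. Whether the groups differed in this was not tested. Of 10 pan-neuronal marker genes, 6 showed it too. In N2, both arrays at position 1 were below both at position 2 in 6 of these 10 markers and above in 0. The summed level of these markers was 9.59 to 13.6 times the 75th percentile in the mutant and 10.2 to 11.9 times in N2, and 7 of 10 were higher in the mutant, with a median difference of 0.05. None of the 10 passed the threshold. The part of neuronal RNA content, slide position or array brightness in the flp values was not tested.

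**Figure D4:**
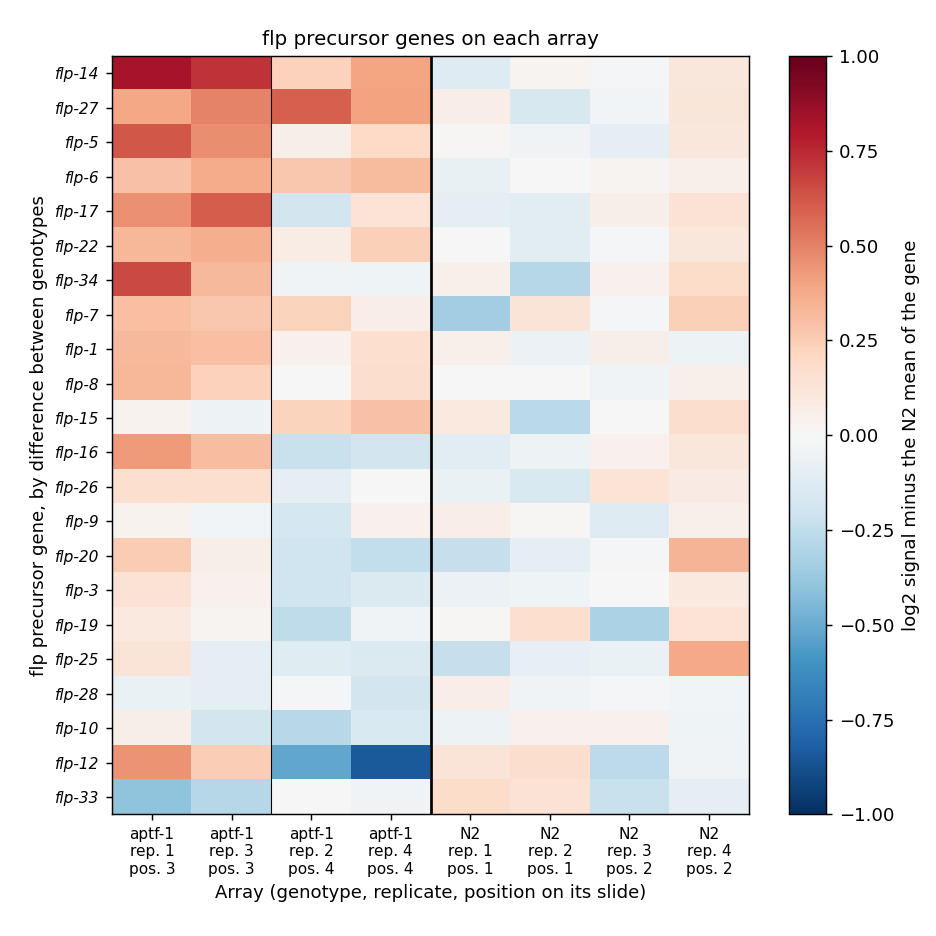
Level of each of the 22 flp precursor genes on each array minus the N2 mean of that gene, on the log2 scale, with the 4 aptf-1(gk794) arrays left of the 4 N2 arrays and mutant arrays ordered by their position on the slide. The first 2 columns (position 3) are redder than the next 2 (position 4) in most rows. flp-6, flp-14 and flp-27 are above every N2 array in all 4 mutant columns.

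The receptors named for FMRFamide peptides (frpr) had no gene with separate genotypes, beside 8.05% of all genes. Their levels lay far below the 75th percentile, between -6.51 and -3.20 on single arrays. frpr-7, a receptor for peptides of flp-1, had the largest difference. It was at -5.34, -5.49, -5.33 and -5.41 on the mutant arrays, against -6.51, -5.94, -5.30 and -5.81 on the N2 arrays. N2 replicate 1, where the probe was not well above background, was the lowest of all 8 and N2 replicate 3 the highest. The difference of 0.50 (SE 0.22, adjusted p = 0.413 in limma) was 0.29 without N2 replicate 1 and 0.05 with normexp background correction.

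frpr-2 had -4.05, -4.75, -3.52 and -3.87 in the mutant, against -4.48, -4.65, -4.43 and -3.97 in N2, a difference of 0.34 (SE 0.27). frpr-4, a receptor that peptides of flp-13 activate, had -5.17, -5.01, -5.78 and -5.21 in the mutant, against -5.53, -5.38, -4.97 and -5.98 in N2, a difference of 0.17 (SE 0.24). In both genes the genotypes overlapped over most of their range. Without 1 array, frpr-2 ranged between 0.16 (without mutant replicate 3) and 0.57 (without mutant replicate 2), and it was 0.13 with normexp. frpr-4 ranged between 0.0023 (without N2 replicate 4) and 0.34 (without N2 replicate 3), and it was 0.0091 with normexp.

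At the lower end, frpr-14 was at -4.42, -4.91, -4.36 and -5.04 on the mutant arrays, against -4.08, -3.93, -4.65 and -4.45 on the N2 arrays, a difference of -0.40 (SE 0.22). frpr-8 was at -4.18, -4.49, -4.76 and -4.48 in the mutant, against -4.40, -4.06, -4.14 and -4.06 in N2, a difference of -0.31 (SE 0.14) that was -0.06 on slide 1 and -0.56 on slide 2. frpr-19 was at -3.62, -4.14, -3.93 and -4.55 in the mutant, against -3.80, -3.57, -3.94 and -3.79 in N2, a difference of -0.29 (SE 0.19). With normexp the differences were -0.13 for frpr-14, -0.07 for frpr-8 and -0.09 for frpr-19, and frpr-19 was at -0.12 without mutant replicate 4. In each of these 3 genes some mutant arrays lay within the N2 range, and the lowest adjusted p of all frpr genes was 0.412. The neighboring genes frpr-11, frpr-12 and frpr-13 on chromosome V differed by 0.05, -0.26 and -0.11.

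Among the npr receptors, only npr-28 had genotypes that did not overlap. It was at -1.97, -1.92, -2.16 and -2.10 on the mutant arrays, against -1.70, -1.61, -1.45 and -1.73 on the N2 arrays. Its SDs were 0.11 in the mutant and 0.13 in N2. npr-28 was lower by a difference of -0.42 (SE 0.10, adjusted p = 0.201 in limma), which put the mutant at 74.8% of N2, and it was -0.37 on slide 1 and -0.46 on slide 2. Without mutant replicate 3, the differences were 0.48 for flp-14, 0.46 for flp-27, 0.29 for flp-6 and -0.38 for npr-28.

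npr-41 had the largest difference of the 71 genes. It was at -1.48, -1.65, -1.84 and -1.63 on the mutant arrays, against -0.31, -1.69, -0.92 and -0.58 on the N2 arrays. N2 replicate 2 lay within the mutant range and the other 3 N2 arrays were above it. The difference was -0.78 (SE 0.27, adjusted p = 0.345 in limma), with the mutant at 58.4% of N2, and without N2 replicate 2 it was -1.05 with an adjusted p of 0.190.

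npr-24 depended on 1 array. It was at -3.54, -3.76, -3.72 and -3.43 in the mutant, against -1.46, -3.74, -3.61 and -3.45 in N2. N2 replicate 1 was thus over 1.9 units above every other array, and the difference of -0.55 (SE 0.48) was -0.01 without it.

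The next genes were dim, and their N2 or mutant values came close to background. npr-33 had -5.62, -6.0, -5.70 and -6.11 in the mutant, against -5.44, -5.09, -5.68 and -5.07 in N2, a difference of -0.54 (SE 0.17, adjusted p = 0.318 in limma) that was -0.01 with normexp. npr-17, which encodes a receptor that takes part in opioid control of feeding, had -4.76, -5.43, -5.08 and -5.70 in the mutant, against -6.04, -5.69, -5.45 and -6.0 in N2. Its difference was 0.55 (SE 0.22, adjusted p = 0.385) and 0.15 with normexp.

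npr-45 had -5.78, -5.85, -6.05 and -5.19 in the mutant, against -6.97, -5.97, -5.72 and -6.06 in N2, a difference of 0.47 (SE 0.29) that was 0.20 without N2 replicate 1. That array had the dimmest 75th percentile, and its lowest level that counted as well above background was -5.95. In all 3 genes at least 1 array of each genotype reached into the range of the other.

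The study examined FRPR-3, NPR-4 and NPR-22 as receptors for FLP-11 peptides. The frpr-3 probe was well above background on 2 of 4 mutant arrays and 3 of 4 N2 arrays and was not tested. npr-4 was at -4.44, -4.50, -4.54 and -4.25 on the mutant arrays, against -4.90, -4.86, -4.72 and -4.33 on the N2 arrays. The N2 array of replicate 4 was above 3 of the mutant arrays, and the difference was 0.27 (SE 0.14, adjusted p = 0.467 in limma), with a 95% interval of -0.06 to 0.59. The 2 tested probes of npr-4 differed by 0.04 and 0.49, and with the probe that did not pass the filter the gene value was -0.15.

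npr-22 was at -4.99, -5.13, -4.97 and -4.59 on the mutant arrays, against -5.05, -4.95, -4.86 and -5.11 on the N2 arrays. In npr-22 mutant replicate 4 was the highest and mutant replicate 2 the lowest of the 8 arrays, with all N2 arrays between them. The difference was 0.07 (SE 0.13), and its 95% interval of -0.22 to 0.37 did not reach 1.5-fold in either direction. The 2 probes of npr-22 differed by 0.16 (SE 0.23) and -0.02 (SE 0.09), and the interval holds only for their mean.

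The other precursors that the study named had small differences. flp-1, whose peptides act on locomotion, was at 0.83, 0.55, 0.80 and 0.68 on the mutant arrays, against 0.56, 0.45, 0.57 and 0.46 on the N2 arrays. Replicate 2 of the mutant lay just inside the N2 range. The difference of flp-1 was 0.21 (SE 0.09, adjusted p = 0.404 in limma), and its 6 probes lay between 0.18 and 0.24.

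flp-10, whose peptides act on the receptor EGL-6 to inhibit egg laying, was at -0.64, -0.98, -0.89 and -0.86 on the mutant arrays, against -0.75, -0.66, -0.66 and -0.74 on the N2 arrays. Replicate 1 of the mutant was the highest of the 8 and the other 3 were the lowest. Its difference was -0.14 (SE 0.09, adjusted p = 0.522 in limma). flp-20, which acts in arousal after touch, was at -1.93, -2.38, -2.12 and -2.43 in the mutant, against -2.41, -2.27, -2.20 and -1.84 in N2. These values were fully mixed, and the difference was -0.03 (SE 0.16), with a 95% interval of -0.40 to 0.33.

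**Figure D5:**
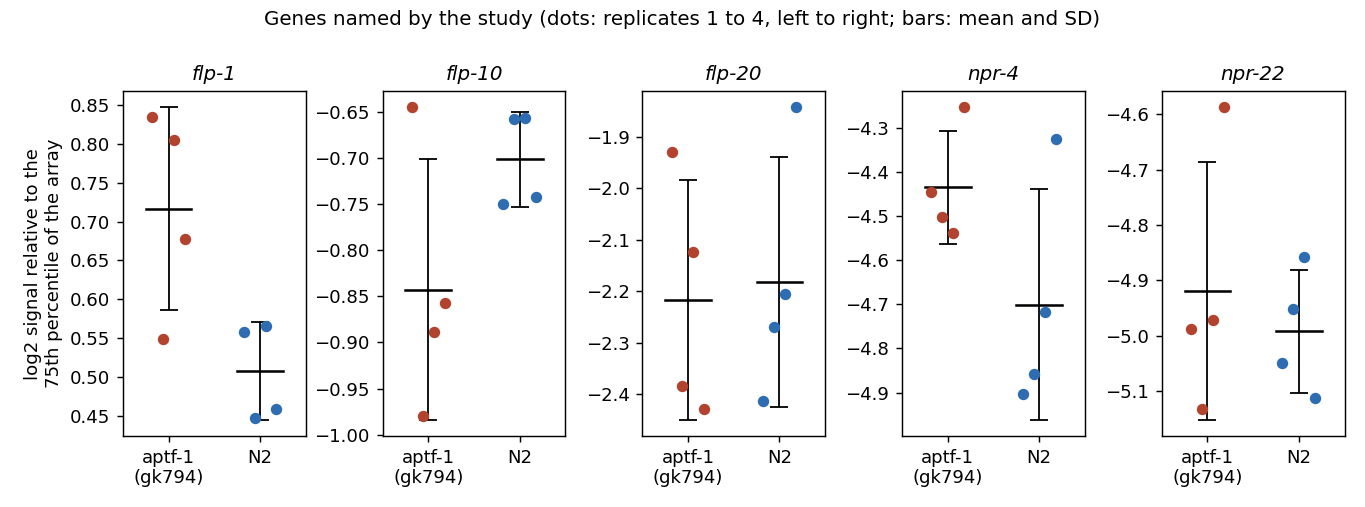
Levels of flp-1, flp-10, flp-20, npr-4 and npr-22 on each array (log2 signal relative to the array's 75th percentile, each panel with its own scale), aptf-1(gk794) on the left and N2 on the right. Dots are arrays and bars are the mean and SD (n = 4), and in each panel at least 1 array of a genotype lies in the range of the other.

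The other genes were the 13 precursors flp-3, flp-7 to flp-9, flp-15 to flp-17, flp-19, flp-22, flp-25, flp-26, flp-28 and flp-34, with 9 frpr and 26 npr receptors. Their differences lay between -0.09 and 0.25 in the precursors, between -0.26 and 0.07 in the frpr receptors and between -0.43 and 0.25 in the npr receptors. Among them flp-7, a precursor from the neuron ASI that acts on fat loss, differed by 0.22. flp-17, another ligand of EGL-6, differed by 0.25. npr-5, a receptor for flp-18 peptides like npr-4, differed by -0.25, and npr-6, a receptor for flp-1 peptides, by -0.04. The fit dropped N2 replicate 2 for npr-15, where the spot had an outlier flag.

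Of the 13 genes on the array that were not kept, flp-23, flp-32, npr-9, npr-11, npr-14, npr-38 and npr-44 were well above background on 0 of 8 arrays. The others were frpr-3 and frpr-6, npr-3, npr-7, npr-19 and npr-20, which were well above background on some arrays of both genotypes. For flp-4, frpr-9, frpr-10 and npr-2 no probe was matched. 65 of the 71 genes were well above background on all 8 arrays.

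Genes of peptide processing and release were read as a list beside the flp genes. It holds precursor-processing enzymes, the vesicle genes unc-31, ida-1 and hid-1, and nep-1, which encodes a peptidase that can degrade peptides. 12 of 13 were tested, 0 passed the threshold, 9 were higher in the mutant, and the median difference was 0.09. In 4 of the 12 (33.3%) the genotypes did not overlap, all with the mutant higher, beside 3.09% of all genes. These were egl-3, the main convertase that cuts precursors, with 0.28 (SE 0.09, adjusted p = 0.317 in limma), and its chaperone sbt-1 with 0.25 (SE 0.08, adjusted p = 0.327). Among the amidating enzymes they were pghm-1 with 0.26 (SE 0.09, adjusted p = 0.349 in limma) and pgal-1 with 0.36 (SE 0.10, adjusted p = 0.285). pamn-1, of the same enzyme group, was lower with overlapping genotypes (-0.14, SE 0.14). unc-31 (-0.14) and hid-1 (-0.09) were lower too.

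pgal-1 was at 2.69, 2.89, 2.59 and 3.01 on the mutant arrays, against 2.46, 2.37, 2.46 and 2.45 on the N2 arrays. egl-3 was at 0.75, 0.43, 0.70 and 0.55 on the mutant arrays, against 0.32, 0.30, 0.34 and 0.36 on the N2 arrays. The carboxypeptidase egl-21, which trims the cut peptides, differed by 0.06. The summed level of the 12 genes was 19.8 to 21.1 times the 75th percentile in the mutant and 16.5 to 17.8 times in N2, so these sums did not overlap. Such a sum is weighted to the brighter genes, among them pgal-1, sbt-1, pghm-1 and egl-3, whose genotypes were separate. It therefore does not show a change in the list as a whole. Of the other FLP receptors egl-6 and dmsr, 8 of 17 were tested, 0 passed, and the median was 0.04.

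Marker genes of other tissues were read in the same way. Of 7 tested genes of the molting epidermis, 6 were higher in the mutant, 0 passed, and the median was 0.28. noah-2 went the other way, and it was the single gene of this list with separate genotypes, at -4.62, -5.45, -4.43 and -4.73 on the mutant arrays, against -3.92, -3.33, -4.20 and -3.94 on the N2 arrays (difference -0.96, SE 0.26, adjusted p = 0.243 in limma). The molting gene mlt-10 was at -2.83, -2.35, 2.19 and 1.54 on the mutant arrays, against -3.49, -1.97, -3.79 and -2.77 on the N2 arrays. The 2 high arrays, labelled aptf-1(gk794) replicates 3 and 4, were the mutant arrays of slide 2. The summed level of this list was 1.03 to 7.46 times the 75th percentile in the mutant and 0.89 to 1.61 times in N2. The slide 1 values given above for flp-14, flp-27, flp-6 and npr-28 do not hold the 2 high arrays, and they rest on 2 arrays of each genotype. On slide 1, mlt-10 was at -2.83 and -2.35 in the mutant, against -3.49 and -3.79 in N2. Median differences were -0.14 over 6 muscle genes, -0.05 over 10 sperm genes and 0.02 over 7 germline genes, and 0 of them passed. The part of developmental timing in the values of the peptide genes was not tested.

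By position in the genome, 26 of the 71 genes (36.6%) lie on the X chromosome, beside 13.7% of 14921 tested genes with a name. These 26 were 9 flp precursors, 5 frpr and 12 npr receptors. The precursors flp-28 and flp-3 are neighbors on X, next to flp-2, and differed by -0.09 and -0.04.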

How the data were processed

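The authors deposited scanner output for 8 arrays (per the file headers, made with version 10.7.3.1 of Agilent Feature Extraction). Its values are background-subtracted spot intensities on a linear scale, and the array design names the build ce4. The authors also deposited a table of intensities, which matched the scanner values after quantile normalization and was used as an alternative. limma is among the tools in the submitters' processing notes, and the 1.5-fold threshold is that of the study.

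Of 45220 spots, 43803 were not controls. Control spots and flagged spots (18 to 62 per array) were left out. The processed intensity was put on the log2 scale, averaged per probe, and the 75th percentile of the array (317 to 842) was subtracted. Of 43603 probes, 34265 (78.6%) matched 19793 genes in an NCBI table for WBcel235 by locus or accession. No sequences or coordinates are given. A probe was tested if all 4 arrays of a genotype had it well above background (32024 probes), and a gene value is the mean of its tested probes. The filter keeps a gene that is dim in 1 genotype.

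Genes were fitted with limma 3.58.1 in R 4.3.3 (two-sided, genotype as the only term), with Benjamini-Hochberg adjustment over 18315 genes and unnamed targets. The fit was tested on simulated data. Python 3.11.15 with pandas 2.3.3 read the files. Labels do not say whether replicates came from separate cultures, so p-values measure only the spread between these samples. Intensities carry no counts, and the number of arrays limits the precision.

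The genes and lists were chosen with earlier results of these data known. Genes were named with values if they passed, if their genotypes did not overlap, if they were among the 3 highest or 3 lowest differences of their group, or if the study named them. flp-7, flp-8, flp-17, flp-22, npr-5, npr-6 and the neighbors on chromosomes V and X were named outside this rule, after their values were seen. Alternatives were other scalings, normexp (offset 50) with quantile normalization, no filter, a filter on all 8 arrays, slide, position or replicate as a block, the median of probes and leaving out each array.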

Additional observations from a re-analysis of the deposited data

Results flagged for a closer look

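npr-24 stood out in the N2 group, where replicate 1 lay far from the other 3 arrays. Its gap to the nearest array was 0.874 of the range of the 4, above the critical value of Dixon's test for 4 samples. The level was -1.46 on that array, with the other N2 arrays between -3.74 and -3.45, and the difference between genotypes was -0.01 (adjusted p = 0.967 in limma) without it. This was 1 of 58 groups tested among the genes described with values, where chance gives about 2.9.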

How the results depend on the processing

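None of the 71 genes passed the threshold under any alternative, and 11 did at an unadjusted p under 0.05 (2241 of all genes). The lowest adjusted p over the alternatives was 0.105, for flp-27 with normexp. The number of all genes that passed was 11, with 7 under median scaling, 2 without a filter, 23 with the filter on all 8 arrays, 2 with position as a random block and 2 to 5 without 1 array. The cause was not tested. Genes with separate genotypes numbered 4, and 5 to 11 without 1 array, where fewer arrays are compared. The share over all genes rose too, from 8.05% to at least 10.2% without 1 array. The higher counts are therefore not evidence of more separate genes among the 71. The median of the npr receptors, 0.02, was -0.042 without a filter and ranged between -0.032 and 0.024 without 1 array.

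Of 410 alternative values of the 23 genes described by the rule, 8 changed sign, in 4 genes. flp-12 was 0.46 with the median of its probes and 0.059 without mutant replicate 4, within a range of -0.37 to 0.059 without 1 array. flp-20 was 0.021 and 0.036 without mutant replicates 2 and 4, and 0.079 without N2 replicate 4 (range -0.13 to 0.079). npr-4 was -0.15 without a filter, which adds a probe. npr-22 was -0.0097 with normexp and -0.038 without mutant replicate 4 (range -0.038 to 0.14). The number of flp precursors higher in the mutant ranged between 12 and 17 of 22. The aptf-1 probe differed by -1.44 without mutant replicate 3 (exact permutation p = 0.0286, the smallest possible), and its highest value without 1 array was -0.46. The probe was well above background on only 2 of 4 mutant arrays, so these sizes depend on background. Mutant replicate 3 stood out by the value of this same probe, so the p without it is not support for the labels.

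Same-numbered arrays did not vary together (correlations of -0.11, 0.24, 0.06 and 0.20), so the replicate numbers were not used as pairs. With the replicate block, 0 genes passed, and flp-11 kept its difference of -1.18 with an adjusted p of 0.153. The lowest adjusted p among the 71 genes was then 0.324.

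Depth is known only as signal over background. Genes near it, such as npr-17, npr-33, npr-45 and frpr-7, had differences that shrank with normexp. The offset of 50 in that setting makes differences of dim genes shrink by construction, so this is no test of them. A random block for position (correlation 0.27) raised the lowest adjusted p of the 71 genes to 0.42.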
